A study of Mus musculus with 4 samples.

Results

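The 9 genes C1qa, C1qb, C1qc, Csf1r, Tyrobp, Cd68, Ctss, Cx3cr1 and Aif1, which in the brain are used as markers of microglia, were followed across 4 Affymetrix arrays of mouse hippocampus. They were taken by symbol: every probe set that the platform annotation pairs with 1 gene symbol, that symbol being one of the 9, was included, with its signal on each array. Each probe set is a group of short oligonucleotides chosen to report on a transcript, and some sets can also bind others. Which other transcripts the sets named here may bind was not checked. All 9 genes were found, by 12 probe sets, out of 8251 genes named in this way. Of the 12, 10 probe sets of 8 genes passed the filter on dim signals, a geometric mean signal of at least 565 over the arrays. Aif1 and the dimmer of the Cd68 probe sets did not pass.

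Each array held RNA from the left hippocampus of a male mouse aged 12 months. The control group comprised 2 arrays from nontransgenic mice of the background C57B6/SJL. The APPSw group comprised 2 arrays from Tg2576 mice, which overexpress amyloid precursor protein carrying the Swedish mutation. In this line a prion protein promoter drives the transgene, so neurons and other cells can express it, and amyloid plaques form with age. The labels do not say that the mice were littermates or separately prepared, so p-values reflect only how far these arrays differ from one another, some of which may be technical.

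Microglia are the resident macrophages of the brain. They depend on signalling through the receptor tyrosine kinase encoded by Csf1r, and they sense neurons through the fractalkine receptor encoded by Cx3cr1. Tyrobp encodes DAP12, a membrane adaptor that passes on signals from receptors such as TREM2. Cd68 and Ctss encode a lysosomal membrane glycoprotein and the lysosomal protease cathepsin S, and Aif1 encodes the actin-bundling, calcium-binding protein IBA1. C1qa, C1qb and C1qc encode the chains of C1q, the recognition molecule that starts the classical complement pathway by binding targets such as antibody, dying cells and amyloid. In the brain, microglia are the main source of C1q, and C1q also tags synapses for removal. In bulk tissue, fewer cells of a type and less RNA per cell cannot be told apart.

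The C1q chain genes lie next to each other on chromosome 4, in the order C1qb, C1qc and C1qa in RefSeq (GRCm38.p6), with no other annotated gene between them. The promoter table, also from RefSeq, held 6 of the 9 genes: C1qb, C1qc, Cd68, Ctss, Cx3cr1 and Aif1. Its windows run from 250 bases before to 50 after a start site. They were searched on both strands for GAGGAAGT, a form of the site bound by the myeloid transcription factor PU.1, and for its shorter core GAGGAA, which lies inside the longer one. GAGGAAGT was found in 2 of the 6 genes, C1qc and Ctss, and in 3.20% of all 32851 windows. GAGGAA was found in 5 of the 6, all but Cx3cr1, and in 28.3% of all windows. Shown first are the bases before the start site of C1qb (chr4:136886201-136886450, minus strand), then those of its neighbour C1qc (chr4:136892915-136893164, minus strand), because the probe sets of these adjacent genes gave different values. The Ctss sequence (chr3:95526536-95526791, plus strand) is shown because it too holds the longer motif, and it runs on to the end of that motif. All are in GRCm38.p6 and run 5′ to 3′ along the gene. Capitals mark GAGGAAGT on the opposite strand, which begins 195 bases before the C1qc start and spans the Ctss start.
C1qb: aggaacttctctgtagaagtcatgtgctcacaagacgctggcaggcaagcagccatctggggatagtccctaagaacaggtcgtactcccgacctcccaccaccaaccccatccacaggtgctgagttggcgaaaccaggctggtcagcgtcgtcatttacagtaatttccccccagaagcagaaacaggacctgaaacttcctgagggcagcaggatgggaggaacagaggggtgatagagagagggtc
C1qc: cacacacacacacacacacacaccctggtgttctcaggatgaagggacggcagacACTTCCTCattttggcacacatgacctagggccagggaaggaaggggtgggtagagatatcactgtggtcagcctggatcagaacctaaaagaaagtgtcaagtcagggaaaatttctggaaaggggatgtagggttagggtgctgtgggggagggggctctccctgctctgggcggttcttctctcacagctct
Ctss: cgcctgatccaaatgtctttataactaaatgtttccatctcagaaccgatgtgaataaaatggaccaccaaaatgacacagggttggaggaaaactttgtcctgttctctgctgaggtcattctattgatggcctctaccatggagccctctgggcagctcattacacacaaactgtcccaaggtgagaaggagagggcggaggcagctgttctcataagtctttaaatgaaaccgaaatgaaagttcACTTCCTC
A match describes these letters only. The gene for PU.1 itself, Spi1, was dim here, with signals of 479.7 and 525.3 in the controls against 153.4 and 464.5 in the APPSw arrays, under the filter's signal on every array.

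The arrays had median signals between 926 and 1033. APPSw 1 stood apart by its choroid plexus markers: over the 7 kept genes of that list the summed signal was 25932 and 16646 in the controls against 141387 for APPSw 1 and 20293 for APPSw 2. Ttr, which encodes the choroid plexus protein transthyretin, had 8908 and 1896 in the controls against 83384 for APPSw 1 and 3236 for APPSw 2. Both kept hemoglobin genes were highest in APPSw 2, with a summed signal of 22848 there and 10006 to 13175 on the other arrays. The members' signals are therefore given below for each APPSw array, and some of the differences and medians also for APPSw 1 and APPSw 2 singly. The part of these cells in the members' values was not tested.

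The members' differences had both signs. Transcripts for Tyrobp, Cd68 and Cx3cr1 had signals 1.30-fold to 1.38-fold above control in APPSw mice, C1qc and the brighter Csf1r probe set had signals 1.54-fold and 1.39-fold below, and C1qa, C1qb by its brighter probe set and Ctss differed by 1.04-fold to 1.10-fold. No member passed the test: by limma, adjusted by Benjamini-Hochberg over all 7453 probe sets tested, 0 of the 10 member probe sets were called (adjusted p of 0.612 to 0.93). The share called among all probe sets was 0%, with a lowest adjusted p of 0.599. At an unadjusted p under 0.05 there was 1 of the 10, C1qc, against 8.05% of all probe sets, 600 in number. With 2 arrays against 2, an exact permutation test of a single gene cannot give a two-sided p below 0.333, and the number of arrays limits the precision of every value.

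**Figure D1:**
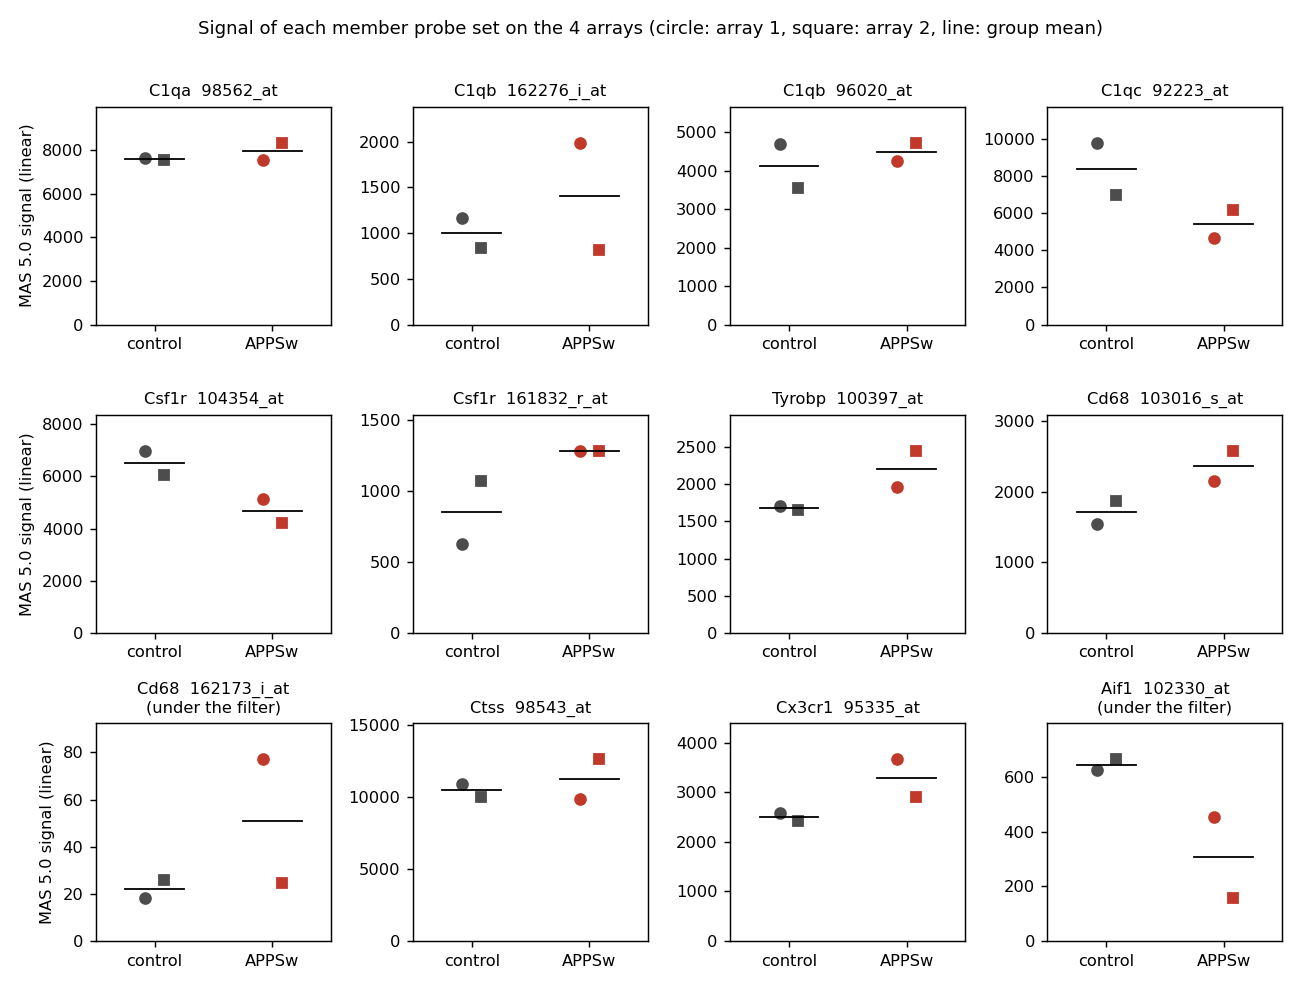
MAS 5.0 signal (vertical axis, linear, from 0) of each of the 12 member probe sets on the 2 control and 2 APPSw arrays, with circles for array 1, squares for array 2 and a line at the group mean. The groups are apart with APPSw below for C1qc, the brighter Csf1r probe set and Aif1, and with APPSw above for Tyrobp, the brighter Cd68 probe set, Cx3cr1 and the dimmer Csf1r probe set. Each panel has its own scale, and levels of different probe sets are not comparable.

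Among the C1q chains, C1qa had signals of 7638 and 7528 in the controls against 7538 and 8311 in the APPSw arrays. The groups overlapped, and the log2 difference, APPSw minus control, was 0.06 (SE 0.17, 95% interval -0.36 to 0.49, adjusted p = 0.93 by limma). The upper end of that interval is above the difference measured for Cd68, so the test does not show that C1qa was equal in the groups.

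C1qb had signals of 4704 and 3561 in the controls against 4260 and 4716 in the APPSw arrays by its brighter probe set. Again the groups overlapped, and the log2 difference was 0.13 (SE 0.21, 95% interval -0.39 to 0.65, limma adjusted p = 0.87). Its dimmer probe set had 1165 and 841.1 in the controls against 1983 for APPSw 1 and 818.9 for APPSw 2. That set was high on 1 array only, so its log2 difference of 0.36 (SE 0.44) was 1.00 for APPSw 1 against the control mean and -0.27 for APPSw 2.

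C1qc, by contrast, had signals of 9760 and 6949 in the controls against 4664 and 6141 in the APPSw arrays. Both APPSw arrays lay below both controls, APPSw 1 by 0.82 and APPSw 2 by 0.42 on the log2 scale relative to the control mean. The log2 difference was -0.62 (SE 0.25, 95% interval -1.24 to -0.0034, limma adjusted p = 0.612). With no filter, the interval was -1.46 to 0.21 (limma unadjusted p = 0.106), so whether it holds 0 depends on the processing. Without control 1 the log2 difference was -0.38. The controls themselves were 0.49 apart, so the difference between groups was larger than the gap within either group. Signals of the 3 chains were also set against each other within each array, a comparison that array scaling does not touch. The log2 ratio of C1qc to C1qa was 0.35 and -0.12 in the controls against -0.69 and -0.44 in the APPSw arrays, a difference of -0.68. Against the brighter C1qb probe set, C1qc had log2 ratios of 1.05 and 0.96 in the controls against 0.13 and 0.38 in the APPSw arrays, a difference of -0.75. There the controls were 0.09 apart, and APPSw 1 minus APPSw 2 was -0.25. C1qb to C1qa gave -0.70 and -1.08 in the controls against -0.82 and -0.82 in the APPSw arrays, so these overlapped. The C1qc probe set thus differed from the C1qa set and the brighter C1qb set by more than the gap between replicates. The C1qa set and the brighter C1qb set did not differ from each other in this way. The dimmer C1qb set was not used in these ratios. These ratios are made of the same signals as the differences above, so they add no separate support, and they carry no test of their own.

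Csf1r, whose receptor binds the growth factors CSF1 and IL-34, was measured by 2 probe sets that gave opposite signs. The brighter had signals of 6966 and 6053 in the controls against 5144 and 4215 in the APPSw arrays. Both APPSw arrays lay below both controls, with a log2 difference of -0.48 (SE 0.20, 95% interval -0.96 to 0.0049, limma adjusted p = 0.612). The dimmer had signals of 627.0 and 1073 in the controls against 1279 and 1280 in the APPSw arrays, a log2 difference of 0.64 (SE 0.28, limma adjusted p = 0.612). There both APPSw arrays lay above both controls, but the controls were 0.78 apart on the log2 scale, and the difference was 0.25 without control 1 and 1.03 without control 2. The suffix of its identifier, _r_at, marks a set for which the manufacturer relaxed its probe selection rules. No direction can therefore be given for Csf1r as a gene. Csf1, one of its ligands, had signals of 3284 and 2413 in the controls against 2630 and 2980 in the APPSw arrays, with overlapping groups and a log2 difference of -0.0078 (SE 0.22, limma adjusted p = 0.996).

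Tyrobp had signals of 1708 and 1659 in the controls against 1963 and 2447 in the APPSw arrays. The controls were close together and both APPSw arrays lay above them, by 0.22 for APPSw 1 and 0.54 for APPSw 2. The log2 difference was 0.38 (SE 0.19, 95% interval -0.09 to 0.85, limma adjusted p = 0.62). Of its signalling partners, the tyrosine kinase gene Syk had 1701 and 2663 in the controls against 3115 and 2310 in the APPSw arrays, and the related kinase gene Zap70, best known from T cells, had 2354 and 3251 in the controls against 2384 and 1154 in the APPSw arrays. The groups overlapped for both kinases.

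Cx3cr1 had signals of 2588 and 2413 in the controls against 3665 and 2909 in the APPSw arrays. Both APPSw arrays lay above both controls, by 0.55 for APPSw 1 and 0.22 for APPSw 2 relative to the control mean, and the log2 difference was 0.39 (SE 0.20, 95% interval -0.10 to 0.87, limma adjusted p = 0.62). Its ligand gene Cx3cl1, which neurons express, had 47127 and 42745 in the controls against 44653 and 33387 in the APPSw arrays by its brighter probe set. Those groups overlapped, with a log2 difference of -0.22 (SE 0.21, limma adjusted p = 0.776). The dimmer Cx3cl1 probe set had 983.1 and 442.3 in the controls against 1073 and 1024 in the APPSw arrays.

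Of the lysosomal members, Cd68 had signals of 1547 and 1874 in the controls against 2149 and 2577 in the APPSw arrays by its brighter probe set. Both APPSw arrays lay above both controls, and the log2 difference was 0.47 (SE 0.20, 95% interval -0.03 to 0.96, limma adjusted p = 0.612). It was 0.34 for APPSw 1 and 0.60 for APPSw 2. The other Cd68 probe set, with signals of at most 25.8 in the controls against 77.0 in APPSw 1 and 24.5 in APPSw 2, lay far under the filter and carried no usable level. Ctss had signals of 10941 and 10024 in the controls against 9836 and 12614 in the APPSw arrays, with overlapping groups. Its log2 difference was 0.09 (SE 0.20, 95% interval -0.41 to 0.59, limma adjusted p = 0.914), and -0.09 for APPSw 1 alone.

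The remaining cathepsins, lysosomal proteases of many cell types, and the cystatins, which inhibit several of them, gave 14 kept genes of 18 measured, 8 above 0 and 6 below, with a median of 0.06 that was -0.041 with arrays centred on the median and -0.00037 without control 2. Cstb, a cystatin, had 7500 and 6705 in the controls against 9250 and 9625 in the APPSw arrays, a log2 difference of 0.41 (SE 0.17, limma adjusted p = 0.612). Ctsz had 1132 and 1098 in the controls against 1306 and 1385 in the APPSw arrays, and Lamp2, a lysosomal membrane protein gene, had 1799 and 1731 in the controls against 1456 and 1486 in the APPSw arrays. Ctsh had 1013 and 881.5 in controls and 988.1 in APPSw 1 but 256.2 in APPSw 2, so its log2 difference of -0.91 came from 1 array.

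Aif1 was dim, with signals of 626.8 and 664.3 in the controls against 454.6 and 158.4 in the APPSw arrays. Both APPSw arrays lay below both controls, while only the controls exceeded the filter's signal of 565. With no filter the log2 difference was -1.27 (SE 0.59, 95% interval -2.93 to 0.40, limma adjusted p = 0.77), and the APPSw arrays were 1.52 apart. The value in APPSw 2 was low enough that the size of this difference depends on how dim signals are treated.

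**Figure D2:**
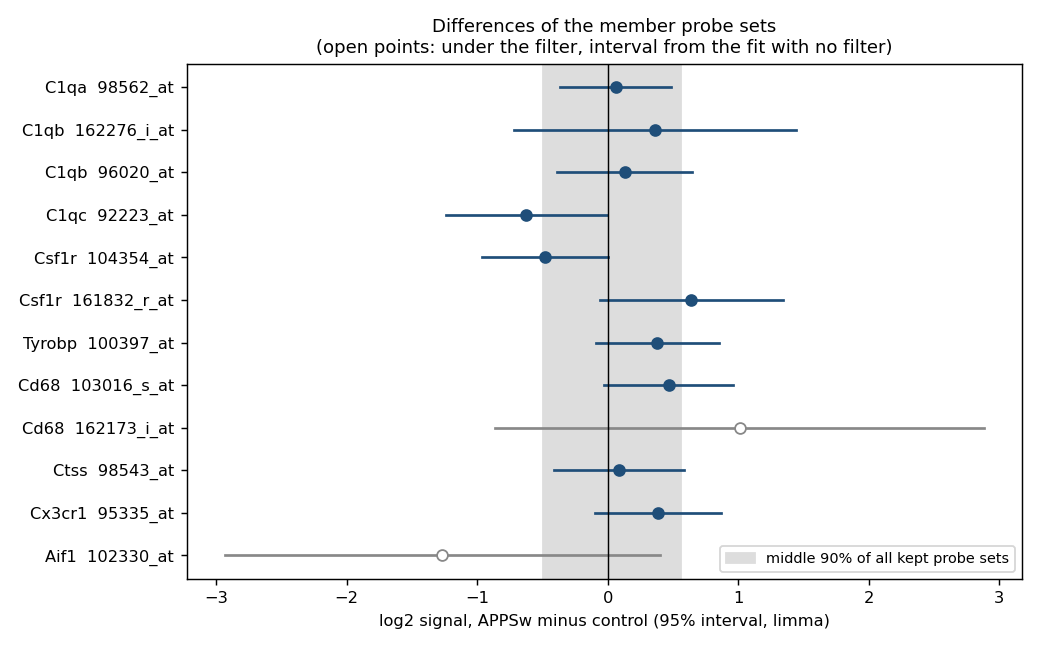
Difference in log2 signal, APPSw minus control (horizontal axis), for the 12 member probe sets, with limma's 95% interval, over a grey band holding the middle 90% of all kept probe sets, -0.50 to 0.56. Points lie on both sides of 0, and C1qc at -0.62 and the dimmer Csf1r set at 0.64 are the kept sets outside the band, the latter at 0.25 without control 1. Open points are the sets under the filter, with intervals from the fit that kept every probe set.

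Across the 10 kept member probe sets, 8 differences were above 0 and 2 below, where 52.7% of all probe sets tested were above 0. The dimmer C1qb and Csf1r sets are among those above. By gene, with the brightest set, 6 were above 0 and 2 below. Aif1, lower but under the filter, is in neither count. Both APPSw arrays lay above both controls for 4 of the 10, against 22.2% of all probe sets tested, and below both for 2 of the 10, against 19.0%. For 5 of the 10, those of C1qc, Tyrobp, Cd68, Cx3cr1 and the brighter Csf1r set, the difference between group means was larger than the gap within either group, against 27.7% of all probe sets. The median difference was 0.25 over the 10 probe sets and 0.11 over the 8 genes by their brightest set, where the median over all 7453 probe sets was 0.02. Against the control mean, the median over the 8 genes was 0.025 for APPSw 1 and 0.21 for APPSw 2. The median size of the difference without its sign was 0.38 for the members and 0.19 for all probe sets. Because 1 gene can have several probe sets and members share the cells they come from, these counts are descriptions, and with so few arrays and no member called, nothing particular to the list was read from them.

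**Figure D3:**
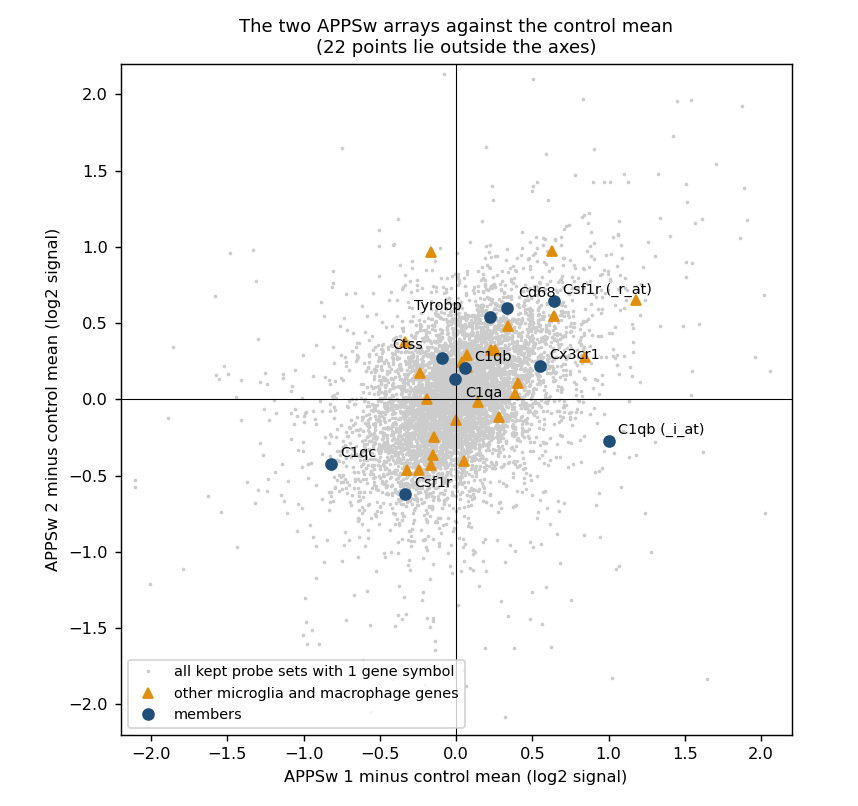
Log2 signal of APPSw 1 (horizontal axis) and of APPSw 2 (vertical axis), each minus the mean of the controls, for all kept probe sets with 1 gene symbol (grey), the 25 kept genes of the wider microglia and macrophage list (triangles) and the 10 kept member probe sets (circles). Csf1r by its brighter set and C1qc lie in the lower left, Cd68, Tyrobp and Cx3cr1 in the upper right, and the dimmer C1qb set is at 1.00 in APPSw 1 and at -0.27 in APPSw 2. Because the same control mean is subtracted on both axes, the slope of the cloud is no measure of agreement, and 22 points lie outside the axes.

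A wider list of 62 microglia and macrophage genes was measured for 48, and 25 were kept. Of these 16 were above 0 and 9 below, with a median of 0.14, and 0 were called by limma. At an unadjusted p under 0.05 there were 3 of the 25, all higher, against 8.05% of all probe sets in either direction. For 8 of the 25 both APPSw arrays lay above both controls, against 22.2% of all probe sets, and below both for 4, against 19.0%. The median was 0.045 with arrays centred on the median, 0.067 without control 2 and 0.068 without APPSw 2. Cd37, a tetraspanin of leukocytes, had signals of 780.2 and 609.9 in the controls against 1562 and 1084 in the APPSw arrays, a log2 difference of 0.92 (SE 0.25, limma adjusted p = 0.599). Irf8, a transcription factor needed for microglia, had 571.4 and 788.1 in the controls against 1036 and 1316 in the APPSw arrays, a log2 difference of 0.80 (SE 0.24, limma adjusted p = 0.599). Cd52, a small surface glycoprotein gene, had 503.8 and 718.4 in the controls against 938.8 and 876.4 in the APPSw arrays. All 3 had both APPSw arrays above both controls, at signals not far above the filter. Cd53, another leukocyte tetraspanin, went the other way, with 809.2 and 791.4 in the controls against 639.8 and 581.3 in the APPSw arrays. The other genes with both APPSw arrays below both controls were the brighter Laptm5, Cebpa and Csf2ra, with log2 differences of -0.35, -0.30 and -0.20.

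Several defining markers of macrophages were not usable. Of the 23 genes of this list under the filter, 22 were under its signal on all 4 arrays with every probe set they had, among them Itgam, Ptprc, Fcer1g, Adgre1, Cybb and Fcgr3. Itgam, the CD11b gene, had 152.0 and 184.8 in the controls against 228.1 and 131.5 in the APPSw arrays. Ptprc, the CD45 gene, had at most 187.1 by any of its probe sets. The microglial identity of the members' signal could therefore be checked against only part of the usual markers, of which Irf8, Selplg, Mpeg1 and Laptm5 were kept.

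Genes reported in microglia around amyloid plaques were measured for 23 of 27, and 16 were kept. Of these 12 were above 0 and 4 below, with a median of 0.19. That median was 0.086 without APPSw 1 and 0.089 with arrays centred on the median. By limma 0 were called, and 0 had an unadjusted p under 0.05, against 8.05% of all probe sets. Itgax, the CD11c gene, had 836.4 and 709.4 in the controls against 866.0 and 1181 in the APPSw arrays. B2m, the light chain of MHC class I, had 4973 and 6060 in the controls against 5848 for APPSw 1 and 11210 for APPSw 2, and Timp2, a metalloproteinase inhibitor gene, had 3446 and 5552 in the controls against 6294 and 5132 in the APPSw arrays. Cst7, Lgals3, Ccl3, Ccl4 and Ccl6 were among the 7 under the filter.

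Complement genes other than C1q were measured for 26 of 38, and 10 were kept, 7 above 0 and 3 below, with a median of 0.25. By limma 0 were called, and 1 of the 10 had an unadjusted p under 0.05, against 8.05% of all probe sets. That gene was C2, which encodes a protease of the classical pathway, with signals of 642.9 and 566.3 in the controls against 918.6 and 883.1 in the APPSw arrays. Its log2 difference was 0.58 (SE 0.17, limma adjusted p = 0.599). C1ra, which encodes the protease that sits with C1q in the C1 complex, had 644.7 and 703.0 in the controls against 1019 and 821.9 in the APPSw arrays, a log2 difference of 0.44 (SE 0.19, limma adjusted p = 0.612). The other C1ra probe set was at 148.0 and 768.8 in the controls against 149.7 and 155.5 in the APPSw arrays. C5ar1, the receptor for the fragment C5a, had 985.5 and 1222 in the controls against 1591 and 1331 in the APPSw arrays. Cd59a, a membrane inhibitor of the terminal pathway, had 796.6 and 1314 in the controls against 2024 and 1240 in the APPSw arrays. The complement median was 0.45 for APPSw 1, the array with high choroid plexus markers, and 0.12 for APPSw 2, and it was 0.11 without control 1 and 0.10 with the filter at the 60th percentile. For control 1 minus control 2 it was -0.22, close in size to the list's own median.

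**Figure D4:**
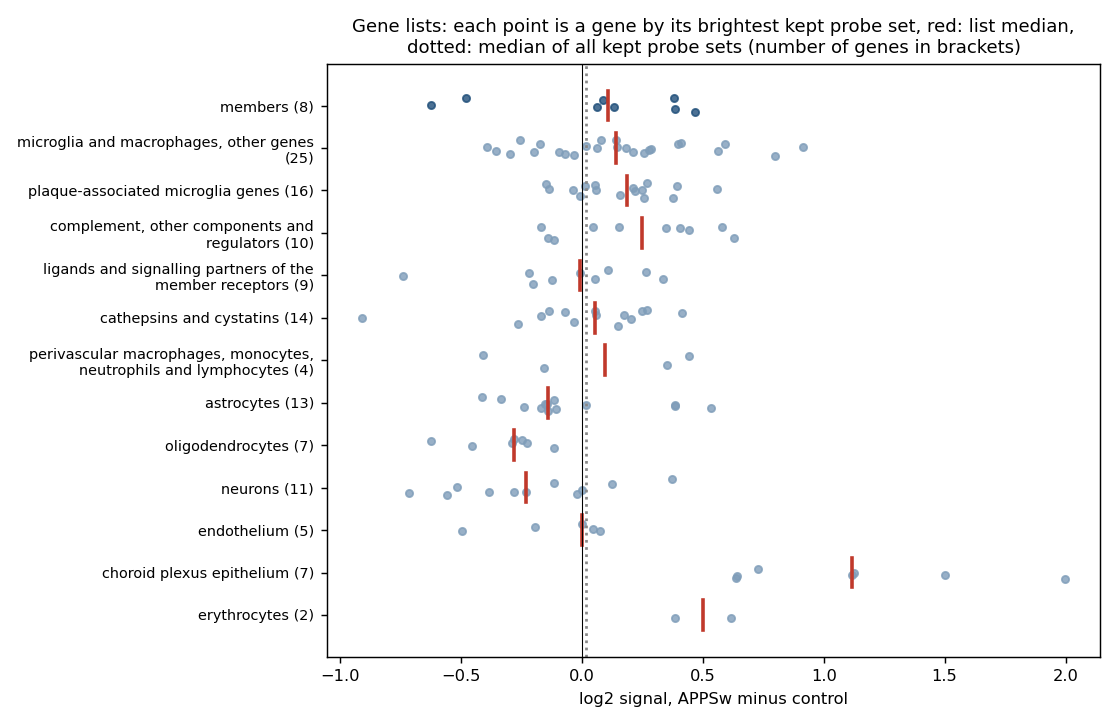
Difference in log2 signal, APPSw minus control (horizontal axis), of each kept gene by its brightest probe set, for the members and 12 other lists, with a red line at each list's median and a dotted line at 0.02, the median of all kept probe sets. The 8 member genes span -0.62 to 0.47 around a median of 0.11. All 7 choroid plexus genes lie above 0 and all 7 oligodendrocyte genes below.

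Markers of other cells in the dissected tissue had medians on both sides of 0. Neuronal and astrocyte genes were all above the filter (11 of 11 and 13 of 13 measured), with medians of -0.23 and -0.14, and oligodendrocyte and endothelial genes had medians of -0.28 over 7 and -0.0011 over 5. The summed signal of the astrocyte list was 362859 and 354991 in the controls against 330777 and 338058 in the APPSw arrays, and Gfap, a filament of reactive astrocytes, had 13522 and 12454 in the controls against 14848 and 8130 in the APPSw arrays by its brighter probe set. Both APPSw arrays lay below both controls for 5 of the 11 neuronal and 4 of the 7 oligodendrocyte genes, against 19.0% of all probe sets. They lay above both for 1 neuronal and 0 oligodendrocyte genes, against 22.2%. Of the 13 astrocyte genes 4 were above 0 and 9 below, and the groups were apart for 3 higher and 3 lower, near those shares. Both APPSw arrays lay above both controls for Glul, the glutamine synthetase gene, at a log2 difference of 0.53. The same held for the water channel gene Aqp4 and the filament gene Vim, each at 0.38. Below both controls were Slc1a2 at -0.41, which had the largest moderated statistic of the list, Cst3 at -0.17 and Apoe at -0.14. The Glul value came from an _r_at set, with relaxed probe selection rules as for the dimmer Csf1r set. The sum, to which bright Apoe and Cst3 contribute most, thus does not stand for every gene of the list. Apoe, expressed by astrocytes and by activated microglia, had 102759 and 106037 in the controls against 99683 and 89658 in the APPSw arrays. Of the markers of perivascular macrophages, monocytes, neutrophils and lymphocytes, 13 of 17 measured were under the filter, and S100a8, a neutrophil gene, had 202.7 and 332.7 in the controls against 230.3 and 260.3 in the APPSw arrays. The 4 kept genes had a summed signal of 3706 and 5989 in the controls against 4541 and 5233 in the APPSw arrays, with Elane, a neutrophil protease gene, at 804.7 and 2179 in the controls. For 2 of the 4, both APPSw arrays lay above both controls, against 22.2% of all probe sets, and with so few genes nothing was read from this count. Camp, a neutrophil antimicrobial peptide gene, had 816.5 and 824.6 in the controls against 1132 and 1101 in the APPSw arrays (unadjusted p = 0.0387, adjusted p = 0.61 by limma). Ms4a1, the B cell gene for CD20, had 1137 and 1327 in the controls against 1462 and 1678 in the APPSw arrays. By limma 0 genes of these lists were called. An unadjusted p under 0.05 by limma was reached by 8.05% of all probe sets. In these lists it was reached by 2 of the 11 neuronal genes, both lower, namely Syp (log2 difference -0.52) and Nrgn (-0.71), which encode synaptic proteins. Camp, 1 of the 4 kept genes of its list, and Cox8b, 1 of the 7 kept choroid plexus genes, also reached it, both higher. The part of the tissue's other cells in the members' values was not tested.

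The mean centred log2 profile of the 4 C1q probe sets over the arrays was 0.18 and -0.16 in the controls against 0.07 and -0.08 in the APPSw arrays. By Euclidean distance over the 4 arrays, the nearest of 5662 other genes were Eftud2, a spliceosome component gene (distance 0.03), Cd300c2, Gss, the glutathione synthetase gene, Maged1 and Bcl6, a transcriptional repressor gene (distance 0.05 for each of the 4). C1qa and the brighter C1qb set lay farther from this mean, at 0.32 and 0.26, C1qc at 0.73 and the dimmer C1qb set, high in APPSw 1 only, at 0.89. The 5 genes were picked for their small distance, which therefore says nothing about how alike the chains are, and the profile describes 4 arrays only.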

How the data were processed

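RNA of the left hippocampus was measured on 4 one-colour arrays, 2 control and 2 APPSw. Per the labels, the authors computed a linear signal intensity for each probe set with MAS 5.0 and scaled every array to 2500. No source used here gives its background settings. The 66 manufacturer's controls were left out of 12488 probe sets. Gene symbols came from the platform annotation, and the gene identifiers of 10817 of 10833 single-symbol probe sets were found in RefSeq (GRCm38.p6). Probe sets whose mean log2 signal was under the 40th percentile, a signal of 565, were left out, which kept 7453.

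The groups were compared on log2 signal by limma (version 3.58.1, under R 4.3.3), using a two-sided moderated test with Benjamini-Hochberg adjustment over the 7453 and a threshold of 0.05 (2 residual and 3.70 prior degrees of freedom). The script was tested on simulated data. A gene in a list is its brightest kept probe set. The members and lists were chosen with earlier results of these data known. The rule for naming took all members, up to 4 genes with the largest moderated statistic of each other list, Csf1, Il34, Cx3cl1, Trem2, C3, C4b, Gfap, Apoe and Ttr where measured, and the 5 genes nearest in profile to C1q. For the markers of other cells, fewer are printed and the lists are given by their medians. Other genes, such as Spi1, Itgam, Ptprc and S100a8, were named after their values were seen. Alternatives were quantile normalization, centring on the median, filters at the 60th percentile or none, a floor or a pseudocount of 250, a replicate block, an intensity trend and each array left out.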

Additional observations from a re-analysis of the deposited data

How the results depend on the processing

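Under every alternative that kept all arrays, limma called 0 probe sets over the whole table, 0 members and 0 genes of the other lists. Where the filter was unchanged, 559 to 674 of the 7453 probe sets had an unadjusted p under 0.05 by limma. Among the 10 member sets there were 0 to 2. With no filter there were 816 of 12422, and 0 of the 12 member sets. With the filter at the 60th percentile there were 492 of 4969, and 3 of the 8 member sets. Fits with an array left out are given by their differences only. With the replicate block the count called was 0, 559 had an unadjusted p under 0.05, and the members' median stayed at 0.25. Arrays with the same replicate number share only that number, and over 7453 probe sets their deviations from the group means correlated at -0.02 between control 1 and APPSw 1. The members' median of 0.25 was 0.15 with arrays centred on the median, 0.11 with the filter at the 60th percentile or 1 brightest probe set per gene, 0.17 with each gene's probe sets averaged, and 0.090 to 0.29 with an array left out. It was 0.090 without control 2 and 0.14 without APPSw 2. Centring on the median took the share of all probe sets above 0 from 52.7% to 39.2%, and their median from 0.02 to -0.08, and left 6 of 10 member probe sets above 0. There C1qa was -0.035 and Ctss was -0.0078.

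Where 1 array was dropped, the spread of its group's remaining array had to be borrowed from the other group. C1qa then ranged from -0.0084 to 0.13, C1qb from -0.070 to 0.33 by its brighter and -0.27 to 1.00 by its dimmer probe set, and Ctss from -0.090 to 0.27. Ctsh ranged from -1.88 to 0.064, Csf1 from -0.23 to 0.21, Gfap from -0.67 to 0.19 and Ttr from -0.34 to 4.34. The cause of these reversals was not tested. C1qc, both Csf1r probe sets, Tyrobp, Cd68 by its kept set and Cx3cr1 kept their signs under the alternatives in which they were kept, and C1qc ranged from -0.87 without control 2 to -0.38 without control 1. Tyrobp was lowest without APPSw 2, at 0.22, and Cx3cr1 without APPSw 1, at 0.22. Among the lists of other cells, the oligodendrocyte median of -0.28 was -0.088 and the astrocyte median of -0.14 was -0.066 without APPSw 2, and the neuronal median of -0.23 was -0.15 without control 2. Low signals limit Aif1, the dimmer Cd68 set and most macrophage markers.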
